A study of Mus musculus with 3 samples.

Results

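The genes of Wnt, Notch and TGF-beta signalling were followed through lists of 5-methylcytosine (m5C) sites in mRNA of mouse germinal vesicle (GV) oocytes, metaphase II (MII) oocytes and 1-cell embryos. Members were all genes with a listed site whose name starts with Wnt, Fzd, Lrp and a digit, Dvl, Axin, Ctnn, Gsk3, Notch, Jag, Dll, Smad, Bmp, Acvr, Tgfb or Ltbp, with Bmp15 left out. This took 48 of the 8353 genes with a site and 333 of the 40298 distinct sites. By role, 15 genes belonged to the Wnt pathway, 4 to Notch and 16 to TGF-beta, while 13 shared a prefix but sit outside the 3 pathways, such as other LDL receptor relatives and adhesion catenins.

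The samples were RNA of wild-type C57BL/6J mice aged 7 to 8 weeks, sequenced after bisulfite treatment, with 1 library per stage. GV oocytes, which are fully grown and arrested before the first division, came from ovaries of females given 10 IU of PMSG, a gonadotrophin of pregnant mare serum, 48 h earlier. MII oocytes, which have matured and await fertilization, came from oviducts 12 h after 5 IU of human chorionic gonadotrophin (hCG) in females primed with 10 IU of PMSG. The 1-cell embryos came from mated females 24 h after 5 IU of hCG following 5 IU of PMSG. Each library thus held pooled cells, and stage cannot be told apart from library, hormone dose or the conversion protocol, whose wording in the labels differed between oocytes and embryos. Ages and doses are those of the labels, but the study's methods state a wider range of ages, another dose of hCG, and induction of embryo donors in the same way as oocyte donors, so a difference in dose between stages is uncertain.

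Bisulfite converts cytosine but not m5C, so the m5C level of a site is the share of its reads that stayed C. A site was listed with at least 20 reads, a level of at least 10% and at least 5 unconverted reads, which asks for a level of 25% at 20 reads. A site that is not listed can be unmethylated, below these limits or uncovered. Of 12 oocyte marker genes, 7, 9 and 12 had a site at the GV, MII and 1-cell stage. Of 10 granulosa and cumulus cell markers, 0, 2 and 0 had one, and the pair in MII oocytes (Amh and Cyp19a1) held 145 reads in all. Coverage at all listed sites fell from a median of 121 and 107 reads in the oocytes to 58 in 1-cell embryos. Coverage is not normalized, so in pooled material fewer cells, less RNA per cell and shallower sequencing of a library cannot be told apart.

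Wnt ligands bind Frizzled receptors and the co-receptors Lrp5 and Lrp6, which through Dishevelled (Dvl) proteins hold back the Axin and Gsk3 complex that otherwise marks beta-catenin (Ctnnb1) for destruction. Notch receptors are cleaved after contact with Jagged (Jag) or Delta-like (Dll) ligands on a neighbouring cell. TGF-beta, activin and BMP ligands bring together type I and type II receptor kinases, which phosphorylate receptor Smads that enter the nucleus with Smad4. All of them act in the exchange between oocyte and follicle cells or in later embryonic patterning, and mRNA stored in the oocyte can supply their components to the embryo.

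The sites on which the results below turn are shown as 21-nt windows of the mRNA strand (GRCm38 reference, T for U), with the methylated C in capitals, or the whole motif CTCCA where the site belongs to the class of the methyltransferase NSUN6. The Wnt sites come first. They were chosen because they were covered at every stage, changed most between stages or carried the NSUN6 motif. The change was ranked only among sites that passed the test below with at least 50 reads in both libraries.
Axin2 5′ UTR, chr11:108920504-108920524, plus strand: cggggccaccCggaggccgag
Axin2 5′ UTR, chr11:108920511-108920531, plus strand: acccggaggcCgaggcgtccg
Axin2 coding, chr11:108923712-108923732, plus strand: acagcgttgtCTCCAagcagc
Axin2 coding, across the splice junction at the end of exon 8, plus strand: gccccagaagCagcggtgctg
Ctnnb1 coding, chr9:120957822-120957842, plus strand: ggctttcagtCgagctgacca
Lrp5 coding, chr19:3602325-3602345, minus strand: tgatcgagcgCgtggagaaga
Lrp5 coding, chr19:3620058-3620078, minus strand: ggcctctgcaCtggactttga
Dvl3 5′ UTR, chr16:20517053-20517073, plus strand: ggccggagaaCaagggagctg
Gsk3b 3′ UTR, chr16:38241284-38241304, plus strand: gttgcagatgCcagcttagga

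The Notch and TGF-beta sites were chosen in the same way, and the last pair is from genes outside the pathways with a rise into the embryo.
Jag2 coding, chr12:112911216-112911236, minus strand: gcagcaatgtCaggagaaggc
Jag2 coding, chr12:112914378-112914398, minus strand: gctcagtgccCagggacacat
Tgfb2 coding, chr1:186625567-186625587, minus strand: ccataaatccCgaagcttccg
Tgfb2 coding, chr1:186632730-186632750, minus strand: aaaaccagagCggagggtgaa
Tgfb3 3′ UTR, chr12:86057427-86057447, minus strand: agtggtcagtCaggtgaaggc
Bmp6 coding, chr13:38498998-38499018, plus strand: tcgatgataaCTCCAatgtca
Bmp6 3′ UTR, chr13:38499254-38499274, plus strand: aagggctttcCcagttcctaa
Tgfbr3 3′ UTR, chr5:107108990-107109010, minus strand: agcacaccaaCTCCAaaagtg
Smad3 3′ UTR, chr9:63650007-63650027, minus strand: cttgaactaaCaggtggtgta
Ctnnd1 coding, chr2:84616860-84616880, minus strand: tcagcatgagCggggcagttt
Tgfbrap1 coding, chr1:43071545-43071565, minus strand: tcatagcgctCgatgacgaat

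The question was first where along each pathway listed sites fell. In the Wnt pathway all 7 cytoplasmic transducers of the annotation (Axin1, Axin2, Dvl1, Dvl2, Dvl3, Gsk3a, Gsk3b) had a site, as did beta-catenin and its inhibitor Ctnnbip1, which keeps beta-catenin from its DNA-binding partners. Of 19 Wnt ligand genes only Wnt7a had one, with 2 sites in each library. Among the receptors, 3 of 10 Frizzled genes (Fzd3, Fzd7, Fzd8) and both co-receptors had one. In the Notch pathway both Jagged genes and 2 of 4 receptors (Notch1 and Notch2) had a site, and 0 of 3 Delta-like genes did. In the TGF-beta pathway sites were listed for 4 of 12 ligands (Bmp5, Bmp6, Tgfb2, Tgfb3), for 7 of 13 receptors, for 4 of 8 Smads (Smad1, Smad2, Smad3, Smad4) and for Ltbp3, a binding protein of latent TGF-beta. All 3 BMP receptor genes (Bmpr1a, Bmpr1b, Bmpr2) had a site, and the TGF-beta receptor genes Tgfbr1 and Tgfbr2 had none, unlike the co-receptor Tgfbr3. Over all names that the rule takes, 48 of 110 protein-coding genes of the annotation had a site (43.6%), beside 36.5% of all 22028 protein-coding genes. By part, the share was 37.5% for Wnt, 44.4% for Notch (4 of 9 genes) and 41.0% for TGF-beta. It was highest in the genes outside the pathways, at 59.1% (13 of 22). A gene without a site may simply lack coverage, which the lists do not show.

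Sites were spread unevenly over genes. Lrp5 had the most distinct sites of all members, 24, with 4 at the GV stage, 5 at the MII stage and 22 in embryos. Jag2 had 16 (4, 8 and 12 in the order of the stages), Axin2 had 15 (9, 11 and 12), Smad3 had 13 (4, 5 and 10) and Bmp6 had 11 (5, 6 and 10). Ctnnbip1 ran the other way, with 11, 13 and 3 of its 15 sites, and so did Lrp1, a large endocytic receptor outside the pathways, with 11, 14 and 0 of 16. Genes with a site numbered 41, 42 and 36 over the stages, and their sites 140, 182 and 195, so that the sites per gene were 3.41, 4.33 and 5.42. Over all genes with a site the same ratio was 2.6, 3.07 and 3.9.

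**Figure D1:**
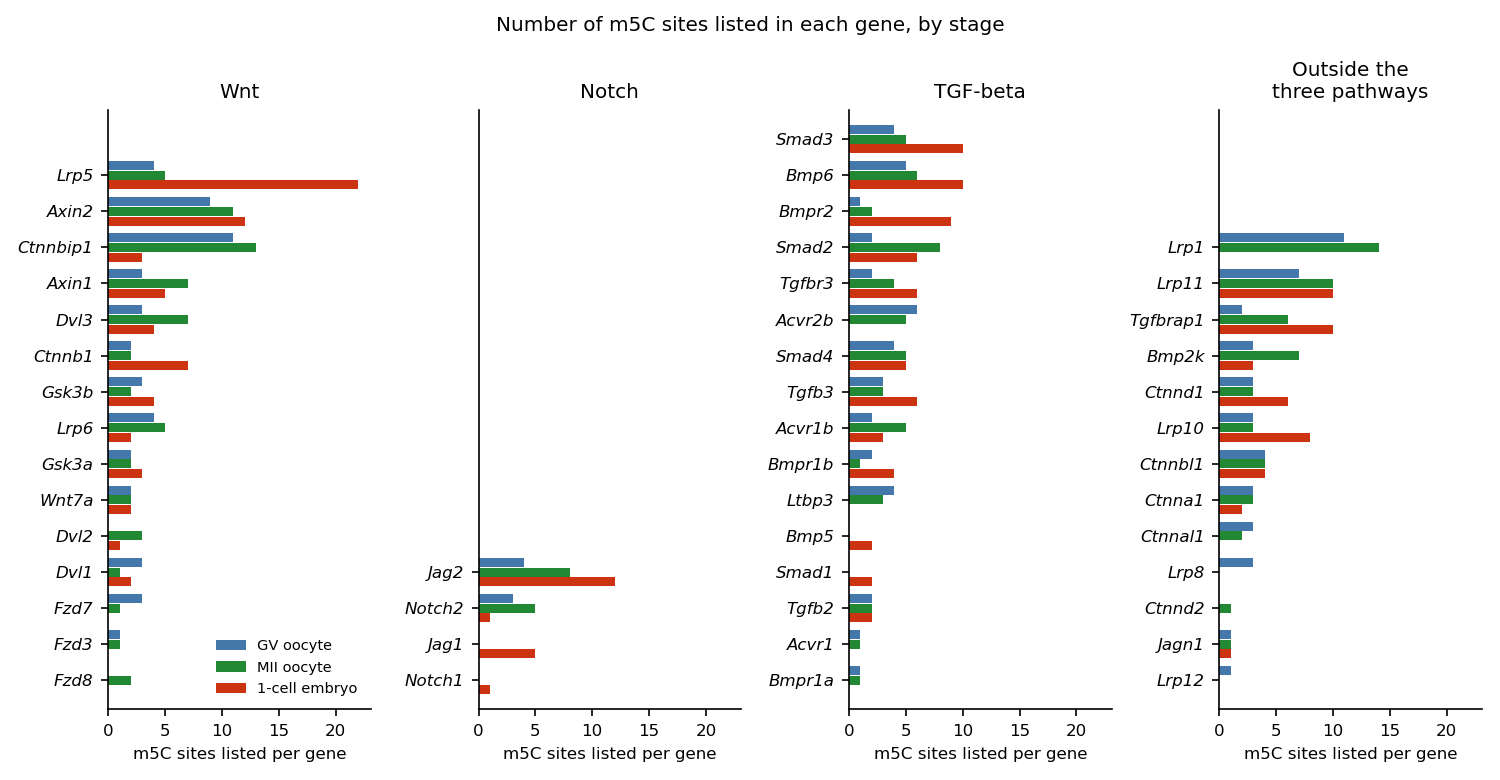
Number of listed m5C sites in each of the 48 genes (bars along the x axis, coloured by library), with the genes split by pathway and ordered by distinct sites. Lrp5 holds 22 sites in 1-cell embryos against 4 and 5 in the oocytes, while Ctnnbip1 and Lrp1 hold most of theirs in the oocytes.

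By pathway, the Wnt genes had 50, 64 and 67 sites over the stages, in 13, 15 and 12 genes. The Notch genes had 7, 13 and 19 sites in 2, 2 and 4 genes, and the TGF-beta genes 39, 51 and 65 sites in 14, 14 and 12 genes. The genes outside the pathways had 44, 54 and 44 sites in 12, 11 and 8 genes. Site numbers were thus highest in the embryo in all 3 pathways and in MII oocytes outside them. Over all genes the lists held 15910, 20694 and 24996 sites, so they too held most in the embryo. In the embryo 39.0% of member sites had under 50 reads (17.1% and 17.0% in the oocytes), beside 41.0% of all sites (20.3% and 22.9%). With at least 50 reads the members had 116, 151 and 119 sites, beside 12674, 15946 and 14749 over all genes. Both thus had most at MII. By that limit Wnt (42, 53 and 44 sites) and TGF-beta (29, 39 and 34) had most sites at MII, while Notch (5, 12 and 17) still had most in the embryo.

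Levels in the lists were low for most sites. The median over the members was 18.4% at the GV stage (95% interval 16.5% to 20.45%), 19.4% at MII (17.4% to 21.6%) and 22.8% in 1-cell embryos (19.5% to 26.8%), beside 19.5%, 19.8% and 23.8% over all sites. Intervals here and below come from the number of sites or reads alone, and PCR copies are not independent molecules, so that they cover counting error only. At sites with at least 50 reads the members' medians were 17.4%, 19.0% and 16.5%, beside 18.3%, 18.6% and 18.2% over all such sites. By that limit the embryo no longer had the highest median in either. By pathway, the Wnt medians were 20.4%, 22.1% and 18.03%, the Notch medians 18.2%, 13.7% and 14.98%, and the TGF-beta medians 14.9%, 18.75% and 23.3%, with overlapping intervals at each stage for Wnt and TGF-beta. Those were over all listed sites. With at least 50 reads the TGF-beta medians were 14.1%, 18.5% and 17.3%, no longer highest in the embryo, where 47.7% of its sites had fewer reads. Levels of 50% or more were reached at 15, 24 and 38 sites (10.7%, 13.2% and 19.5%, beside 11%, 11.9% and 16.7% of all sites). The share thus rose over the stages in both. Every read was unconverted at 0, 0 and 5 member sites, all in the embryo (2.56% of its member sites, 2.2% of all its sites).

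Coverage also varied with the pathway. The Notch sites had median coverages of 750, 409 and 165 reads, through Jag2 (750 to 1188 reads at its GV sites). Wnt sites had 117.5, 128 and 75 reads and TGF-beta sites 192, 162 and 52. The deepest member site was the same in all 3 libraries, a Ctnnb1 site with 1635, 1568 and 536 reads, followed in the embryo by a Tgfb2 site with 533. At sites in both lists, coverage at MII was a median of 0.89 of that at GV (0.867 over all shared sites), and in 1-cell embryos 0.268 of that at MII (0.318). Among the 25 genes with sites in both of the latter lists, this ratio was lowest in the alpha-catenin gene Ctnna1 (0.0305), Axin1 (0.0855) and Smad3 (0.109), and highest in Tgfb2 (0.575), Jagn1 (0.527) and Tgfb3 (0.499). Those of Ctnna1, Axin1 and Jagn1 rest on 1 shared site each, with 22, 37 and 39 embryo reads, and the others on 2 each. The ratio was 0.318 in Ctnnb1, 0.332 in Jag2, 0.199 in Axin2 and 0.163 in Lrp5, the gene whose listed sites rose most in number.

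**Figure D2:**
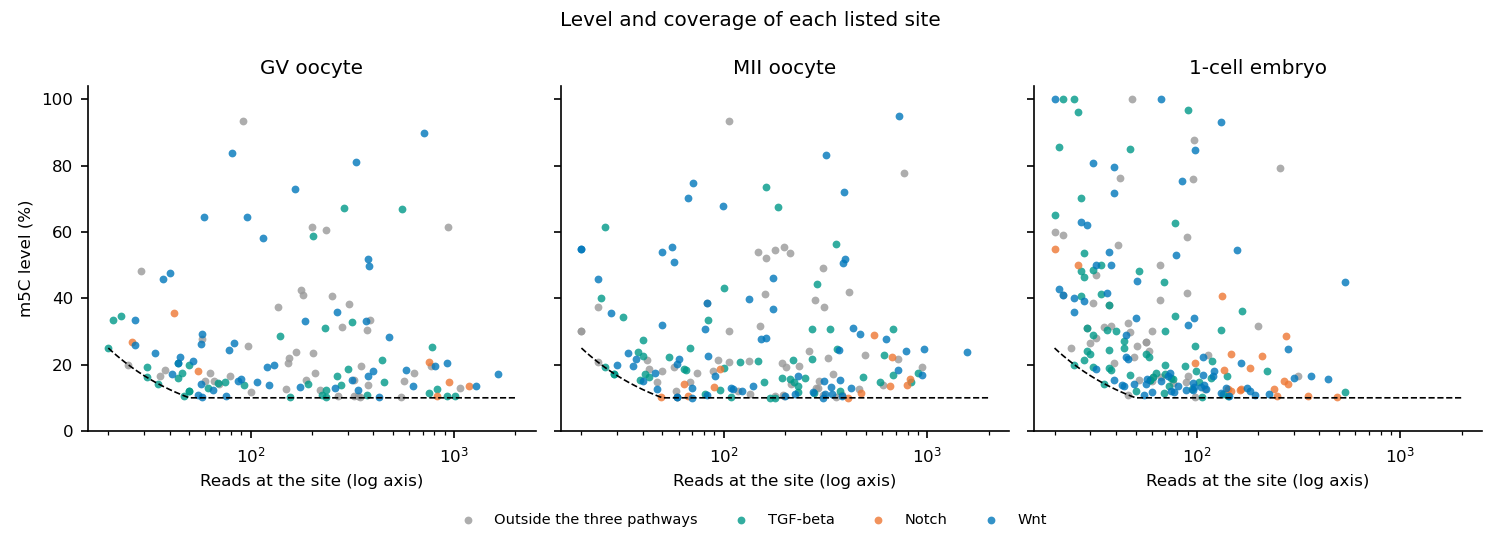
Level (y axis, %) against reads at the site (x axis, log scale) of each listed member site in the 3 libraries, coloured by pathway. The dashed line is the lowest level a site could be listed with, 25% at 20 reads and 10% from 50 reads, and the 5 fully unconverted sites of the embryo lie at 20 to 67 reads.

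Which sites recurred was asked next. Of the 333 distinct sites, 53 were in all 3 lists (15.9%, beside 15.2% of all sites), 128 only in the embryo (38.4% beside 41.3%) and 138 only in oocytes (41.4% beside 38.0%). The share found only in the embryo was 53.6% for Notch, 42.4% for TGF-beta, 38.1% for Wnt and 29.5% outside the pathways. The GV and MII oocytes shared 117 member sites, 83.6% of the GV list and 64.3% of the MII list (81.4% and 62.6% over all sites). MII oocytes and embryos shared 64, which was 35.2% and 32.8% of their lists (38.7% and 32.1% over all sites). At the level of genes, 31 of 48 had a site at every stage (64.6%, beside 53.9% of all genes with a site) and 12 only in oocytes (25% beside 23.3%), among them Ltbp3, the receptors Acvr1, Acvr2b and Bmpr1a, and all 3 Frizzled genes. The 4 genes with sites only in the embryo (8.33% beside 13.6%) were Jag1, Notch1, Bmp5 and Smad1.

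At shared sites levels were compared between libraries with a two-sided Fisher's exact test on unconverted and converted reads, adjusted by Benjamini-Hochberg over all shared sites of the transcriptome. With 1 library per stage the test compares these libraries and not the stages. A site counts as shared only if it met the listing limits in both libraries. Sites that fell below them are thus missing, in members and background alike, which keeps counts of lower sites small. At the low coverage of the embryo the level needed was often above 10%. Between the oocytes, from GV to MII, 23 of 117 shared member sites were higher (19.7%, background 19.6% of all shared sites) and 2 were lower (1.71%, background 0.965%). From MII oocytes to embryos, 30 of 64 were higher (46.9%, background 51.3%) and 1 was lower (1.56%, background 2.45%). From GV oocytes to embryos, 38 of 56 were higher (67.9%, background 66.1%) and 0 were lower (background 1.05%), with 0 lower at an unadjusted p under 0.05 as well. The shares of members thus lie near those of the transcriptome, and so do the median differences, 4.40, 11.98 and 18.7 percentage points in these comparisons beside 4.87, 12.7 and 19.2 over all shared sites. The adjustment was then redone over only the shared sites with at least 50 reads in both libraries. Of such member sites, 25 of 98 were higher and 2 lower between the oocytes (background 24.5% and 1.01%). From MII oocytes to embryos 18 of 40 such sites were higher and 1 lower (background 52.5% and 3.15%), with a median difference of 6.70 points beside 10.04 over all such sites. From GV oocytes to embryos 21 of 32 were higher and 0 lower by Fisher's exact test, adjusted or not (background 69.3% and 1.28%).

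**Figure D3:**
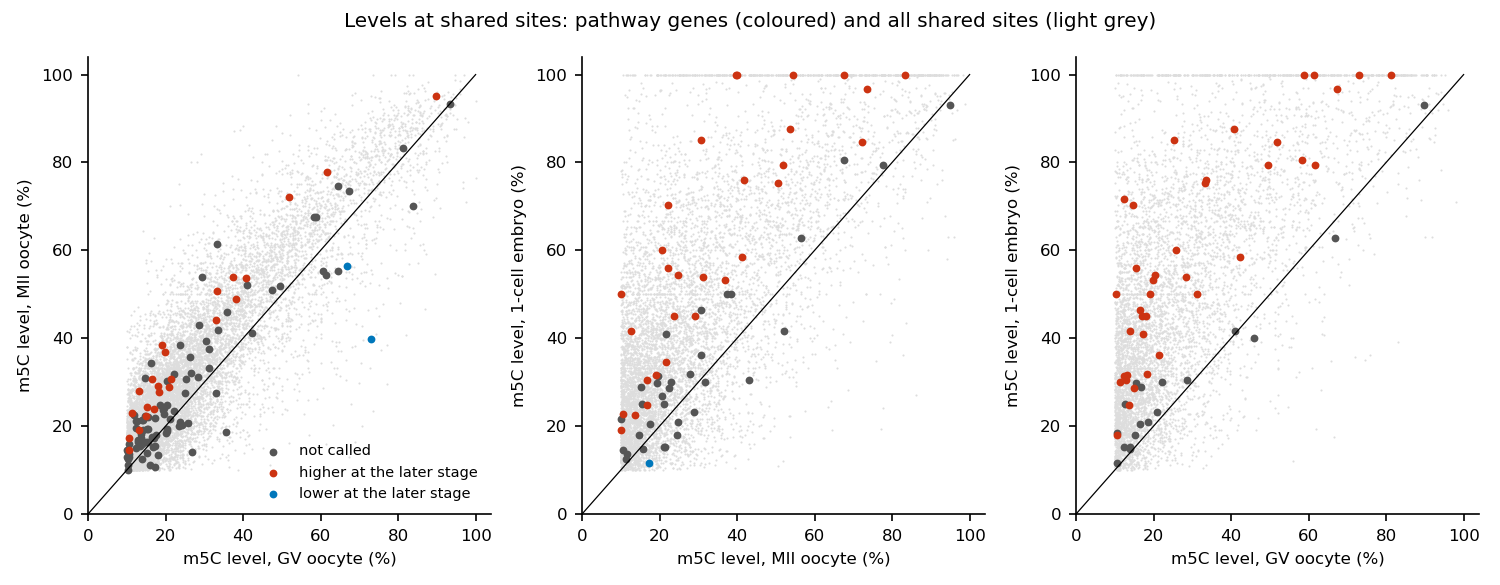
Level in the earlier library (x axis, %) against the later library (y axis, %) at shared sites for the 3 pairs. Member sites are coloured by the outcome of Fisher's exact test, all shared sites are light grey, and points above the diagonal are higher in the later library: 23, 30 and 38 member sites passed as higher and 2, 1 and 0 as lower in the order of the panels.

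Within the Wnt pathway, 10 of 41 shared sites were higher in MII than in GV oocytes (24.4%, background 19.6%) and 1 was lower. Of these, 8 higher sites and the lower one lay among the 19 sites of the cytoplasmic transducers. The 8 higher ones lay in Axin2 (5) and Dvl3 (3) alone, and sites of 1 transcript are not independent. From MII oocytes to the embryo 12 of 20 Wnt sites were higher (60%, background 51.3%), and from GV oocytes to the embryo 16 of 20 were (80.0%, background 66.1%). The median difference over the latter 20 was 27.1 points (95% interval 13.5 to 30.8), beside 19.2 over all shared sites. Of 11 Wnt sites with at least 50 reads at every stage, 9 had levels rising from GV through MII to embryo (81.8%), beside 69.4% of all such sites. The 11 sites lay in Axin2, Dvl3, Ctnnb1 and Lrp5 alone and are not independent, and the difference in share was not tested.

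Axin2, a scaffold of the destruction complex and itself a target gene of Wnt signalling, had 6 sites in all 3 lists, more than any other member. A 5′ UTR site 184 nt before the start codon had a level of 51.9% in GV oocytes (376 reads), 72.2% in MII oocytes (392 reads) and 84.7% in 1-cell embryos (98 reads). The level was higher at each step, with an adjusted p of 3.75e-07 between the oocytes and 0.0268 from MII oocytes to the embryo by Fisher's exact test. The site 7 nt further on had 33.2%, 50.6% and 75.3% at 370, 387 and 85 reads (adjusted p 3.66e-05 and 0.000136, same test). These sites lie close enough to share reads, so they are not independent. A coding site in codon 710, in exon 8 of 11, was close to full methylation throughout, with 89.7%, 95.1% and 93.1% at 710, 729 and 131 reads. Coding sites in codons 15 and 27 rose from 18.4% to 27.8% and from 18.05% to 29.1% between the oocytes (adjusted p 0.00155 and 0.00192, Fisher's exact test), and stood at 31.9% and 45.1% in the embryo. In all, 5 of the 9 Axin2 sites shared by the oocytes were higher in MII oocytes. Axin1, its paralog, had 11 sites but only 1 at all stages, a coding site at 28.4%, 31.2% and 54.1% at 479, 433 and 37 reads.

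Beta-catenin (Ctnnb1), the effector that Wnt signalling stabilizes, had 2 sites in the oocytes and 7 in the embryo. The site in codon 676, exon 13 of 15, had a level of 17.1% in GV oocytes (95% exact interval 15.3% to 19.0%, 1635 reads), 23.9% in MII oocytes (21.8% to 26.0%, 1568 reads) and 45.0% in 1-cell embryos (40.7% to 49.3%, 536 reads). The 3 intervals do not overlap, and each step passed the test (adjusted p 5.64e-05 and 7.6e-18, Fisher's exact test). In codon 586 the level was 13.7%, 16.8% and 24.7% at 1285, 946 and 279 reads and rose into the embryo (adjusted p 0.00891 from MII oocytes, Fisher's exact test), while the step between the oocytes did not pass. The sites listed only in the embryo had levels from 11.01% to 39.3%, and 2 of them overlap an exon of a gene on the other strand. Its inhibitor Ctnnbip1 had 11 of its 15 sites in the 3′ UTR, none of them listed in the embryo, where a 5′ UTR pair and a site in codon 76 were listed. That coding site had 49.6%, 51.9% and 79.5% at 381, 393 and 39 reads. Of the 3′ UTR sites, 3 overlap an exon of a gene on the other strand.

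The co-receptor Lrp5 had 3 sites in all lists. In codon 1178 the level was 20.35%, 24.8% and 54.4% at 924, 967 and 158 reads, and rose into the embryo (adjusted p 6.54e-12 from MII oocytes, Fisher's exact test). In codon 679 it was 81.2%, 83.3% and 100% at 330, 318 and 67 reads, the last with a 95% exact interval of 94.6% to 100%. The other sites of Lrp5 in the embryo lay between 10.8% and 34.0% and spread over the coding sequence from exon 1 to exon 19. Lrp6, the other co-receptor, had 0 sites shared with the embryo. A coding site of Lrp6 in codon 608 rose from 13.1% to 28.0% between the oocytes at 175 and 161 reads (adjusted p 0.00835, Fisher's exact test).

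Dvl3, an adaptor that relays the receptor signal, had 3 sites at all stages. Its 5′ UTR site had 19.8%, 36.8% and 53.2% at 131, 174 and 79 reads, and its 3′ UTR site had 19.2%, 38.6% and 50% at 120, 83 and 38 reads. Both rose between the oocytes (adjusted p 0.0112 and 0.0226, Fisher's exact test), but thinned to 20 reads the 5′ UTR site turned to a difference of -5.0 points. A coding site in codon 683 rose from 15.2% to 24.5% (adjusted p 0.0196, same test) and then stood at 18.03% at 122 reads in the embryo. The kinase gene Gsk3b held the largest fall among the member sites that passed. Its 3′ UTR site had 72.9% in GV oocytes (166 reads), 39.8% in MII oocytes (133 reads) and 100% in the embryo (20 reads). The level was lower in MII oocytes than in both other libraries (adjusted p 4.67e-07 and 5.1e-07, Fisher's exact test), although the embryo value rests on the fewest reads a site could have. Wnt7a, the only ligand, had sites of 14.04% and 24.4% at GV (57 and 78 reads) and of 62.1% and 62.96% in embryos (29 and 27 reads). Those of the embryo were at other positions, so that no comparison was possible. The GV site of 24.4% had 20.3% at MII (59 reads).

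**Figure D4:**
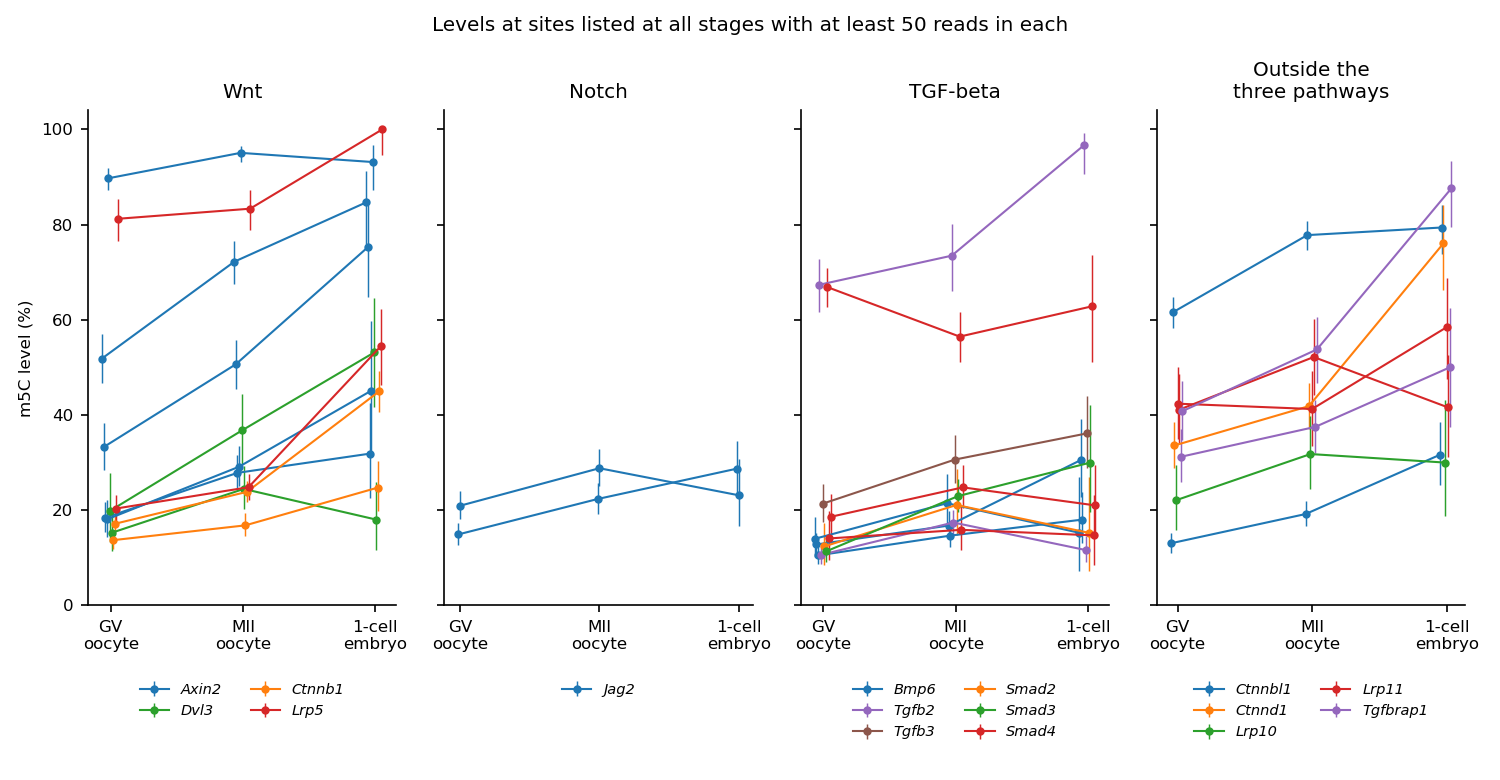
Levels (y axis, %) at member sites listed in all 3 libraries (x axis) with at least 50 reads in each, coloured by gene within each pathway. Bars are 95% exact binomial intervals of the reads. In order over the stages, 20 of the 32 sites rise (62.5%, beside 69.4% of all such sites), among them 9 of 11 Wnt sites and 5 of 11 TGF-beta sites.

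Of the 28 Notch sites, 16 lay in the ligand gene Jag2 and 5 in Jag1. Those of Jag2 were all in the coding sequence. In codon 931 the level was 14.9%, 22.4% and 28.7% at 939, 671 and 275 reads and rose between the oocytes (adjusted p 0.00194, Fisher's exact test). In codon 574 it was 20.9%, 28.8% and 23.1% at 750, 545 and 147 reads and also rose between the oocytes (adjusted p 0.00988, same test), after which it did not pass. From MII oocytes to the embryo the sites in codons 902 and 240 rose, from 13.8% to 22.6% and from 10.02% to 19.1% (adjusted p 0.00637 and 0.0078, Fisher's exact test). The highest Jag2 level, 40.6% at 133 reads in codon 41, was listed in the embryo alone.

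Jag1 had 5 sites, all in the embryo, at 98 to 491 reads, with levels of 10.2% to 20.4%. The receptor Notch2 had 3 sites in both oocyte lists. All were lower at MII, at 18.75% against 35.7%, 14.1% against 26.9% and 13.3% against 18.2%. They had 26 to 96 reads, and 0 passed Fisher's exact test, with 1 lower at an unadjusted p under 0.05. In the embryo Notch2 had 1 other site, at 50% with 26 reads, which overlaps an exon of another gene on the same strand, and Notch1 had 1, at 55% with 20 reads.

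In the TGF-beta pathway, 6 of 33 shared sites were higher in MII than in GV oocytes (18.2%, background 19.6%) and 1 was lower. From MII oocytes to the embryo 8 of 22 were higher (36.4%, background 51.3%) and 1 lower, and from GV oocytes to the embryo 10 of 18 were higher (55.6%, background 66.1%). Between the oocytes the higher sites lay in ligands and Smads, and 0 of the 10 receptor sites passed Fisher's exact test in either direction, with 1 at an unadjusted p under 0.05. Into the embryo 2 of 5 receptor sites shared with MII oocytes were higher. Of 11 TGF-beta sites with at least 50 reads at every stage, 5 had levels in rising order (45.5%, beside 69.4% of all such sites). Those 11 sites lay in Bmp6, Tgfb2, Tgfb3, Smad2, Smad3 and Smad4 alone, and the difference in share was not tested.

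Among the ligands, Tgfb2 had only 2 sites, both at all stages. In codon 400 the level was 67.4%, 73.5% and 96.7% at 288, 162 and 90 reads and rose into the embryo (adjusted p 5.07e-06 from MII oocytes, Fisher's exact test). In codon 222 it was 10.6%, 17.4% and 11.6% at 1008, 896 and 533 reads. It rose between the oocytes (adjusted p 0.000312) and fell again in the embryo (adjusted p 0.00886, Fisher's exact test for both), the only member site to pass as lower in that comparison. The difference in direction within 1 transcript is between sites of unlike level and was not tested itself.

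Bmp6, a bone morphogenetic protein, had 5 sites at all stages. A coding site in codon 119 had 25.2%, 30.7% and 85.1% at 782, 681 and 47 reads, a rise of 54.4 points from MII oocytes (adjusted p 2.61e-12, Fisher's exact test). A 5′ UTR site 84 nt before the start codon had 58.9%, 67.6% and 100% at 202, 185 and 22 reads. Lower levels were found at its 3′ UTR sites listed at all stages. These had 12.8%, 16.8% and 30.5% (821, 680 and 131 reads), and 10.5%, 14.6% and 18.02% (924, 833 and 222 reads). Its coding site of the NSUN6 class was low as well, at 13.98%, 21.5% and 15.3%. Tgfb3 had a 3′ UTR site at 21.4%, 30.6% and 36.1% with 440, 333 and 166 reads, which rose between the oocytes (adjusted p 0.0222, Fisher's exact test).

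Among the receptors, Bmpr2 had 8 of its 11 sites in the 5′ UTR. Of these, 7 were listed only in the embryo, within 642 to 815 nt before the start codon, with levels of 12.0% to 48.1% at 50 to 70 reads. The type I receptor gene Acvr1b had a coding site at 10.3%, 10.1% and 50% with 234, 169 and 34 reads, which rose into the embryo (adjusted p 2.61e-06 from MII oocytes, Fisher's exact test). Acvr2b, a type II receptor gene, had 6 sites in GV oocytes and 5 in MII oocytes at 26 to 50 reads, and 0 in the embryo.

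Among the Smads, Smad3 rose at 3 of its 4 sites shared by the oocytes. Its 3′ UTR site printed above had 11.3%, 23.0% and 30.0% at 751, 614 and 70 reads (adjusted p 5.45e-07 between the oocytes, Fisher's exact test). Its 5′ UTR site 162 nt before the start codon had 16.5%, 30.6% and 46.4% at 266, 271 and 28 reads (adjusted p 0.00183, same test). Smad4, the partner of all receptor Smads, had a site of the NSUN6 class in codon 366 at 66.8%, 56.5% and 62.8% with 552, 356 and 78 reads, lower in MII than in GV oocytes (adjusted p 0.0139, Fisher's exact test). Its 5′ UTR sites at all stages had 14.1%, 15.9% and 14.7%, and 18.6%, 24.8% and 21.01%, with no step passing. Smad2 had a 5′ UTR site at 40.0% in MII oocytes and 100% in the embryo, with 25 reads in each (adjusted p 1.41e-05, Fisher's exact test).

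Outside the pathways, 5 of 36, 8 of 18 and 11 of 16 shared sites were higher in the 3 comparisons (13.9%, 44.4% and 68.8%, beside backgrounds of 19.6%, 51.3% and 66.1%). Ctnnd1, a catenin of adherens junctions, had a coding site at 33.6%, 41.8% and 76.0% with 387, 411 and 96 reads (adjusted p 1.51e-08 from MII oocytes to the embryo, Fisher's exact test). All 8 of its sites overlap an exon of another annotated gene on the same strand, so their reads cannot be assigned to Ctnnd1 with certainty. Tgfbrap1, a protein of vesicle tethering that was named for binding TGF-beta receptors, had a coding site at 40.8%, 53.8% and 87.6% with 250, 212 and 97 reads (adjusted p 1.87e-08 from MII oocytes, same test). Ctnnbl1, a spliceosome-associated protein, rose mainly between the oocytes at a coding site, with 61.55%, 77.8% and 79.4% at 931, 765 and 257 reads (adjusted p 5.89e-11, Fisher's exact test). In Lrp11, neighbouring cytosines of codons 134 and 135 had 42.4%, 41.25% and 58.4%, and 41.1%, 52.2% and 41.6%, at 160 to 180 reads in the oocytes and 89 in the embryo. Of this pair only the first passed, as higher in the embryo (adjusted p 0.0243 from MII oocytes, same test).

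Positions along the transcript are given next. Over the members, 63.6%, 60.4% and 65.1% of sites lay in coding sequence in the order of the stages (68.1%, 68.6% and 73.3% of all sites). In TGF-beta genes 28.2%, 25.5% and 32.3% of sites lay in the 5′ UTR, beside 11.2%, 11.3% and 10.3% of all sites. In Wnt genes the 3′ UTR held 38.0% and 32.8% of sites in the oocytes and 10.4% in the embryo, beside 18.7%, 18.1% and 14.6% of all sites, where the 3′ UTR sites of Ctnnbip1 were absent and coding sites of Lrp5 were added. Of 209 distinct coding sites of the members, 98 (46.9%) were at the third codon position, beside 36.0% of all coding sites. These shares rest on few genes, since sites of 1 transcript are not independent, and were not tested.

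**Figure D5:**
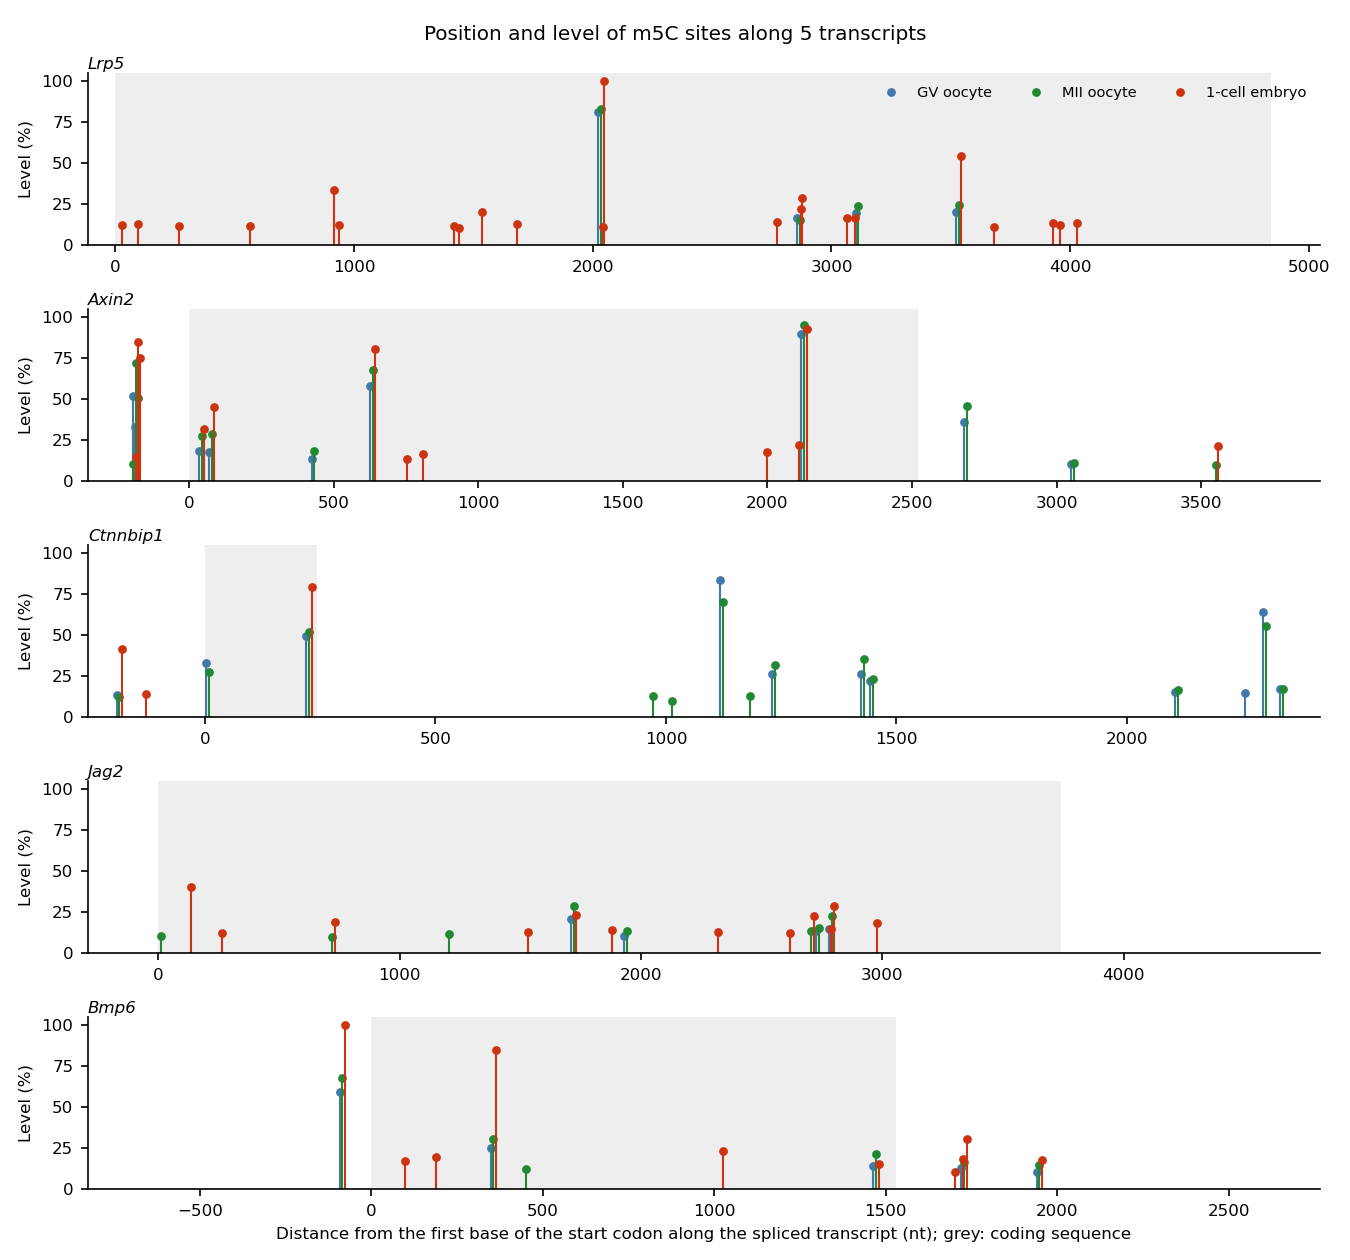
Position (x axis, nt from the first base of the start codon along the spliced transcript, coding sequence in grey) and level (y axis, %) of the listed sites in Lrp5, Axin2, Ctnnbip1, Jag2 and Bmp6, coloured by library and set slightly apart sideways. The embryo sites of Lrp5 cover its coding sequence, the Ctnnbip1 3′ UTR sites are from oocytes alone, and 1 Lrp5 site that lies on another transcript is left out.

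Of the sequence around the sites, the motif was read first. Sites of the NSUN6 class, read as CUCNA from the methylated C on, made up 5 of 140, 5 of 182 and 3 of 195 member sites (3.57%, 2.75% and 1.54%, beside 5.91%, 5.03% and 3.44% of all sites). All 7 distinct ones read CTCCA. They lay in Bmp6, Tgfbr3, Smad2, Smad4, Acvr1b, Axin2 and Fzd7, and none lay in a Notch gene or in a gene outside the pathways. That of Bmp6 had 13.98%, 21.5% and 15.3% at 279, 219 and 59 reads, that of Axin2 13.7% and 18.3% in the oocytes at 629 and 715 reads, and that of Tgfbr3 13.98% and 16.3% at 93 and 43 reads. At the other sites, the class of NSUN2, the 4 bases after the methylated C held a mean of 2.38, 2.3 and 2.0 G, beside 2.23, 2.21 and 1.98 at all such sites and 0.963 after any C of the member genes. In windows of 101 nt folded around them, the site itself was paired in 57.1%, 59.7% and 59.9% (59.2%, 59.9% and 60.7% of all sites).

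The unconverted background that the deposited p-values imply had a median over member genes of 0.227%, 0.360% and 0.382% in the order of the stages, beside 0.264%, 0.367% and 0.354% over all genes. It stood below the lowest listed level at every stage. Sites were listed only where they exceeded the background of their gene, so this was largely set by the listing. The part of the background in the level differences was not tested.

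Other genes of the pathways, from lists drawn up by function, were also higher in the later library at most sites that passed. Of 64 further Wnt genes, such as Apc, the casein kinases and the Tcf factors, 29, 30 and 29 had a site. Of their shared sites 16 of 71 were higher and 1 lower between the oocytes, and 25 of 48 were higher and 3 lower from MII oocytes to the embryo. Of 42 further Notch genes, such as the secretase subunits and Maml co-activators, 23, 25 and 22 had a site. There 17 of 54 shared sites were higher between the oocytes and 17 of 33 into the embryo, with 0 lower by Fisher's exact test in both. Of 41 further TGF-beta genes 10, 12 and 11 had a site, with 7 of 29 higher and 0 lower between the oocytes and 8 of 17 higher and 1 lower into the embryo. These shares stand beside the backgrounds of 19.6% and 51.3% given above.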

How the data were processed

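RNA bisulfite sequencing of GV oocytes, MII oocytes and 1-cell embryos was analysed, with 1 library each. Per the methods of the study, reads were trimmed with cutadapt and Trimmomatic and mapped with HISAT2 and then Bowtie2, on mm10 (GRCm38). The submitters' processing notes name Trimmomatic 0.36 and Bowtie2 2.2.9, while the versions of cutadapt and HISAT2 differ between those notes and the study. The labels name polyadenylated RNA, the methods RNA depleted of ribosomal RNA. For each site the authors deposited a count of C and T reads (its coverage), which is not normalized, and the m5C level as a fraction of that count, printed above in percent. The p-value deposited by the authors tests a site against the conversion background of its gene and was used to recover that background.

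Unconverted reads were taken as level times coverage, whole to within 2.9e-05 reads. Sites were placed in GENCODE M21 transcripts. Shared sites were compared with Fisher's exact test (two-sided, Benjamini-Hochberg over all shared sites, adjusted p under 0.05), which was tested on simulated data. Intervals are exact (95%) for shares and from order statistics for medians. Python 3.11.15, pandas 2.3.3, scipy 1.17.1, samtools 1.23.1 and RNAfold 2.7.2 (37 °C) were used. The total of reads at listed member sites was 38741, 43973 and 18177 in the order of the stages, out of 4475058, 5285011 and 2616279 at all sites, which limits the embryo most.

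Members, roles and gene lists were chosen with earlier results of these data known. Named were the 10 genes with most sites, the 3 outside the pathways with most, sites with at least 50 reads at every stage, up to 5 largest differences per pair and direction among sites that passed with at least 50 reads in both libraries, the deepest site per role, and NSUN6-class sites in more than 1 list. Other sites named were chosen after their values were seen. Alternatives were coverage minimums of 50 and 100 reads, thinning each site to 20 reads, and reads divided by 5. With a coverage minimum the Benjamini-Hochberg adjustment was redone over the shared sites kept.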

Additional observations from a re-analysis of the deposited data

How the results depend on the processing

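No paired analysis was possible because each stage has 1 library. A coverage minimum of 100 reads left 85, 113 and 54 member sites in the order of the stages, 27 genes in GV oocytes and 15 in 1-cell embryos, and an embryo median of 15.8%. At 50 reads the embryo kept 119 sites with a median of 16.5%. Thinned to 20 reads a site, the MII median was 25%. From MII oocytes to the embryo the median difference was 6.70 points at 50 reads and 5.94 at 100, and from GV oocytes to the embryo 11 at 100. Higher sites from MII oocytes to the embryo numbered 18 at 50 reads, 8 at 100, 5 thinned and 3 with reads divided by 5, and from GV oocytes to the embryo 21, 9, 6 and 8. Between the oocytes 0 were higher and 0 lower by Fisher's exact test after thinning or division, and from MII oocytes to the embryo 0 were lower after either. Fewer sites or reads enter each of these by construction. Of 18 named differences, all 18 kept their call at 50 reads. That outcome was nearly settled by their choice among sites that passed with at least 50 reads in both libraries. With reads divided by 5, 5 kept their call, and 2 did when thinned. The Dvl3 5′ UTR site turned to a fall of 5.0 points between the oocytes when thinned (−5.0). Depth limits the embryo values most, and no value has a replicate check.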
